A study of Homo sapiens with 10 samples.

Results

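The 57 genes described here lie along chromosome 14 and were chosen by name out of 2211 chromosome 14 genes in a table of 58302. The list runs from HNRNPC near the start of the long arm to BRF1 near its end. Some genes near each other are listed out of map order, such as METTL3 before TOX4. The list was drawn up with each clone's difference from the control colony in view, so these differences are given as a description, without a test of the list. The libraries came from KYSE-410, a line grown from a squamous cell carcinoma of the human oesophagus. The aim was to knock out SHIP2, a lipid phosphatase encoded by INPPL1, with Cas9 nickase plasmids carrying guide RNAs. Clones G4, D4, G10 and H3 were each isolated from the edited cells, and the control colony received the same vector without a guide. Each of the 5 groups is 1 clone or 1 colony of the same line, sequenced as 2 libraries.

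Nothing in the labels says that the libraries of a clone came from separate cultures, so the spread between them may be technical, and a difference between a clone and the control colony is a difference between single clones. Total RNA was measured, so fewer cells that express a gene and less RNA per cell cannot be told apart. INPPL1, on another chromosome, stood at 65.4 and 64.4 CPM (a gene's reads scaled to a common library total of gene-assigned reads) in G4, 83.6 and 93.3 in D4, 9.49 and 9.49 in G10, 88.1 and 85.3 in H3, and 140 and 150 in the control colony. The 6 squamous markers checked all reached 1 CPM, with a summed level of 409 to 789 CPM over the libraries, although KRT14 reached at most 1.4 CPM. Of the glandular markers KRT8 and KRT18 were abundant, and the list summed to 774 to 2110 CPM, while KRT20 was at 0. The fibroblast list summed to 11.9 to 136 CPM, of which LUM made 119 and 116 CPM in H3, against 4.5 and 4.55 CPM in the control colony. None of the 5 leukocyte markers reached 1 CPM. Depth was estimated at 9653836 to 14253424 reads per library. All 57 members passed the filter on low values (at least 1 CPM in at least 2 libraries), as did 508 other chromosome 14 genes.

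A cell with more or fewer copies of a chromosome usually makes more or less RNA from most genes on it, while single genes can depart from that through their own regulation. Cancer lines often carry uneven chromosome numbers, and clones of one line can differ in them. Many genes on chromosome 14 encode subunits of complexes whose other subunits are encoded elsewhere, so such complexes give a built-in set of genes for comparison. DNA was not analysed here, so the values below are RNA levels and say nothing directly about copy number.

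The members were lower in clone G4 almost throughout the chromosome. Relative to the mean of the control colony's libraries, the median member lay at -0.48 and -0.55 in the G4 libraries on the log2(CPM + 1) scale, -0.03 and -0.15 in D4, 0.03 and -0.09 in G10, -0.12 and -0.05 in H3, and 0.02 and -0.02 in the control colony. Both G4 libraries were thus below every library of the other groups in this median, and the libraries of the other clones lay within 0.15 of the control mean. Genes on other chromosomes had medians of -0.03 and -0.02 in the same G4 libraries.

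The median member stood at 68.6% of the control colony's CPM in G4, with an interquartile range of 63.0% to 80.5%. In G4, 9 members lay under 60% of control, 33 between 60% and 80%, and 15 at 80% or more. The median was 95.8% in D4, 97.6% in G10 and 95.0% in H3. The spread over members was alike in the clones, with an SD over genes of 0.27 in G4, 0.28 in D4, 0.27 in G10 and 0.29 in H3 on the log2 scale. The members' centre was therefore displaced in G4, while their SD was of the same size as in the other clones. Relative to other genes the spread was not alike. Genes on other chromosomes averaging 5 CPM or more had an SD of 0.34 in G4, against 0.55 in D4, 0.50 in G10 and 0.59 in H3.

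**Figure D1:**
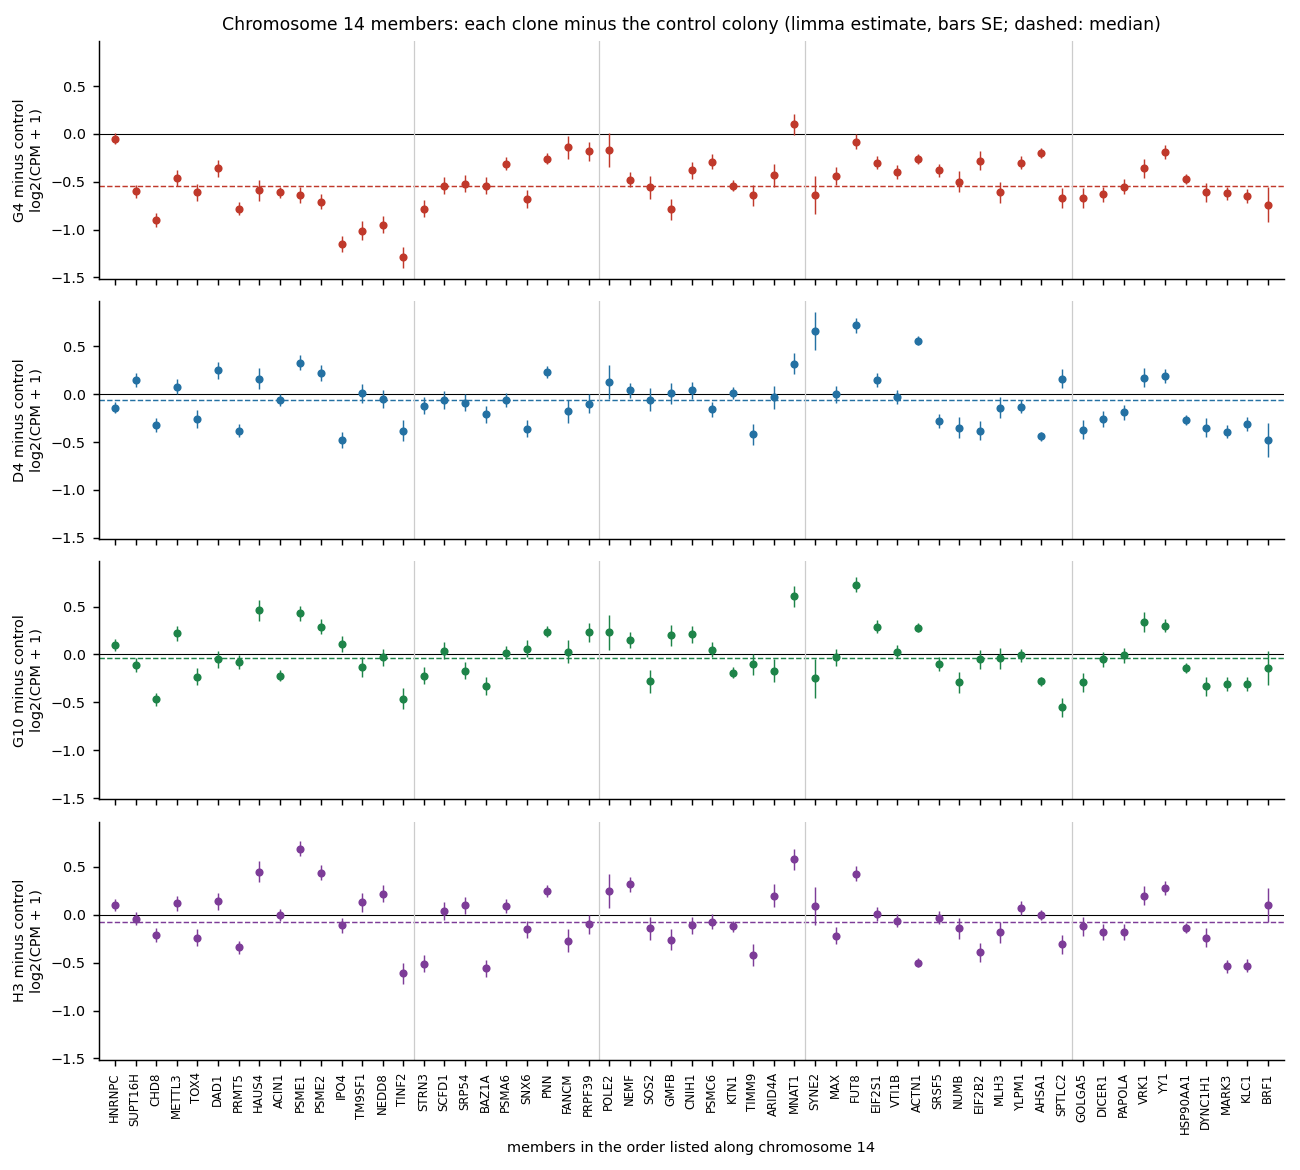
Difference of each of the 57 members from the control colony, on the log2(CPM + 1) scale, with 1 panel per clone. Members are in the order of the list, in which some genes near each other are out of map order. Points are limma estimates, bars are standard errors, dashed lines are the medians over members and grey lines separate 5 stretches of the chromosome. The G4 points, with the exception of MNAT1 at 0.10, lie below 0 with a median of -0.54, and the D4, G10 and H3 points scatter around medians of -0.06, -0.04 and -0.07.

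The clone differences were estimated with limma on log2(CPM + 1) over all 17664 genes tested, and a gene was called at a Benjamini-Hochberg adjusted p under 0.05. In G4 minus control, 50 of the 57 members were called lower and 0 higher, where 16.4% of all genes tested were called lower and 10.9% higher. The median difference was -0.54, against -0.04 over all genes tested. In D4 minus control, 17 members were called lower and 9 higher, where 23.8% and 17.5% of all genes were (41.2% in either direction). In G10, 13 were called lower and 10 higher, beside 19.1% and 17.8% (37.0% in either). In H3, 14 were called lower and 8 higher, beside 22.1% and 23.9% (46.0% in either). The list was chosen on these contrasts, so nothing is read from these shares. The 4 contrasts share the control libraries.

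Counts of calls moved with single control or clone libraries. The share of all genes called in those fits is not given here, so the counts are not compared. When any 1 library was left out, the median over members ran from -0.15 to -0.03 in D4 and -0.09 to 0.03 in G10. In G4 it stayed between -0.58 and -0.48.

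Counted without a model, both G4 libraries lay below both control libraries for 54 of 57 members and above them for 1, where 36.7% of all genes tested lay below and 27.9% above. The corresponding counts were 27 below and 14 above in D4 (40.3% and 29.3% of all genes), 24 and 19 in G10 (33.1% and 31.8%), and 27 and 17 in H3 (36.2% and 38.1%). Set against the mean of D4, G10 and H3, which does not use the control colony, 51 members were called lower in G4 and 0 higher, with a median of -0.44; 23.7% and 19.1% of all genes were so called. In G4 minus each single clone the median over members was -0.42 (D4), -0.43 (G10) and -0.43 (H3). The 6 members not called against the mean of the 3 clones were HNRNPC at -0.07, BAZ1A at -0.17, FANCM at 0.00, PRPF39 at -0.19, EIF2B2 at 0.00 and AHSA1 at 0.04.

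The first stretch, HNRNPC to TINF2, held 15 members with roles in transcription, RNA processing, methylation, proteolysis and transport. Its member median in G4 was -0.64, and 14 members were called lower. HNRNPC, which packages nascent pre-mRNA, was the exception. It stood at 536 and 509 CPM in G4, 494 and 482 in D4, 606 and 555 in G10, 583 and 578 in H3, and 553 and 528 in the control colony. The G4 and control libraries overlapped, and the G4 difference was -0.05 ± 0.06 (standard error). The annotation names 13 copies of HNRNPC elsewhere (pseudogenes and HNRNPC-like genes), which together averaged 5.92 CPM, and how the authors' counting assigned reads shared with them is not stated.

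CHD8, a chromatin remodeller of the CHD family, stood at 108 and 104 CPM in G4, 167 and 152 in D4, 149 and 140 in G10, 170 and 175 in H3, and 203 and 197 in the control colony. All clones were below the control colony, and G4 was below every other library at 53.2% of control. SUPT16H, a subunit of the FACT histone chaperone, METTL3, the catalytic subunit of the main RNA adenosine methyltransferase, and PRMT5, which dimethylates arginines symmetrically, differed from control by -0.60, -0.46 and -0.78 in G4.

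Low values clustered around PSME1 to TINF2, a stretch of 107 kb (chr14:24136158-24242674, hg38) singled out after the values were seen. Its limits come from the member list. Genes on both sides were as low in G4, with THTPA at -1.31 and PCK2 at -1.43 before PSME1, and CIDEB at -1.31 and KHNYN at -1.38 after TINF2. PSME1 (-0.64) and PSME2 (-0.71) were themselves less far from control than CHD8 (-0.90). Its 6 members had a G4 median of -0.98, and the other 51 members one of -0.50. In the other clones the same 6 members had medians of -0.02 (D4), 0.04 (G10) and 0.17 (H3). The 11 other genes of the stretch averaging 5 CPM or more were also low, with a G4 median of -1.08 and a range of -1.58 to -0.51. Several of them overlap a member or each other, so they are not 11 separate observations. MIR7703 lies within PSME2, AL136295.5 overlaps RNF31 and IRF9, and AL096870.2 overlaps CHMP4A. RNF31, the catalytic subunit of the linear ubiquitin ligase, differed by -1.58 in G4, -0.21 in D4, -0.31 in G10 and -0.15 in H3. IRF9, the DNA-binding subunit of the interferon-stimulated factor ISGF3, differed by -1.46 in G4 and by 0.16, -0.17 and 0.03 in D4, G10 and H3.

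TINF2 encodes TIN2, a bridging subunit of the shelterin complex that caps telomeres. It stood at 8.0 and 7.8 CPM in G4, 16.2 and 15.3 in D4, 15.2 and 14.4 in G10, 13.5 and 13 in H3, and 21 and 20.6 in the control colony. No clone overlapped the control colony, and G4 lay at 38.0% of it, the lowest share of any member. IPO4, a nuclear import receptor, stood at 39.2 and 41.8 CPM in G4, 63.2 and 67.1 in D4, 96.6 and 101 in G10, 87.8 and 81.3 in H3, and 89.9 and 92.2 in the control colony. G4 was at 44.5% of control and D4 at 71.6%, while G10 lay above the control libraries.

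TM9SF1, a membrane protein of the transmembrane 9 family, stood at 18.5 and 19.4 CPM in G4, 44.2 and 35.4 in D4, 37.5 and 34.0 in G10, 43.4 and 42.8 in H3, and 40.1 and 38.3 in the control colony. NEDD8, the ubiquitin-like protein that is attached to cullins, stood at 29.6 and 27.3 CPM in G4, 56.9 and 51.1 in D4, 57.4 and 52.1 in G10, 66.9 and 62.9 in H3, and 55.7 and 55.7 in the control colony. In both genes G4 lay below every other library, at 48.3% and 51.1% of control. IPO4, TM9SF1 and NEDD8 overlap annotated read-through genes whose G4 differences were almost the same as theirs (-1.15 for AL136295.4, -1.0 for AL136295.1 and -0.99 for NEDD8-MDP1), so these are not separate observations. PSME2 and RNF31 also overlap on opposite strands, and the strand setting of the counting is not stated.

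PSME1 and PSME2 encode the alpha and beta subunits of the PA28 proteasome activator and are separated by EMC9 and a non-coding gene. PSME1 stood at 20.8 and 19.5 CPM in G4, 39.4 and 41.4 in D4, 42.8 and 43.8 in G10, 52.7 and 52.0 in H3, and 30.9 and 33.0 in the control colony. PSME2 stood at 26.7 and 24.2 CPM in G4, 48.4 and 50.8 in D4, 53.0 and 50.7 in G10, 58.9 and 56.5 in H3, and 42.2 and 42.4 in the control colony. For both genes G4 lay below the control libraries and D4, G10 and H3 above them, so that the PSME1 level in G4 minus H3 differed by -1.34 ± 0.08 on the log2(CPM + 1) scale.

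**Figure D2:**
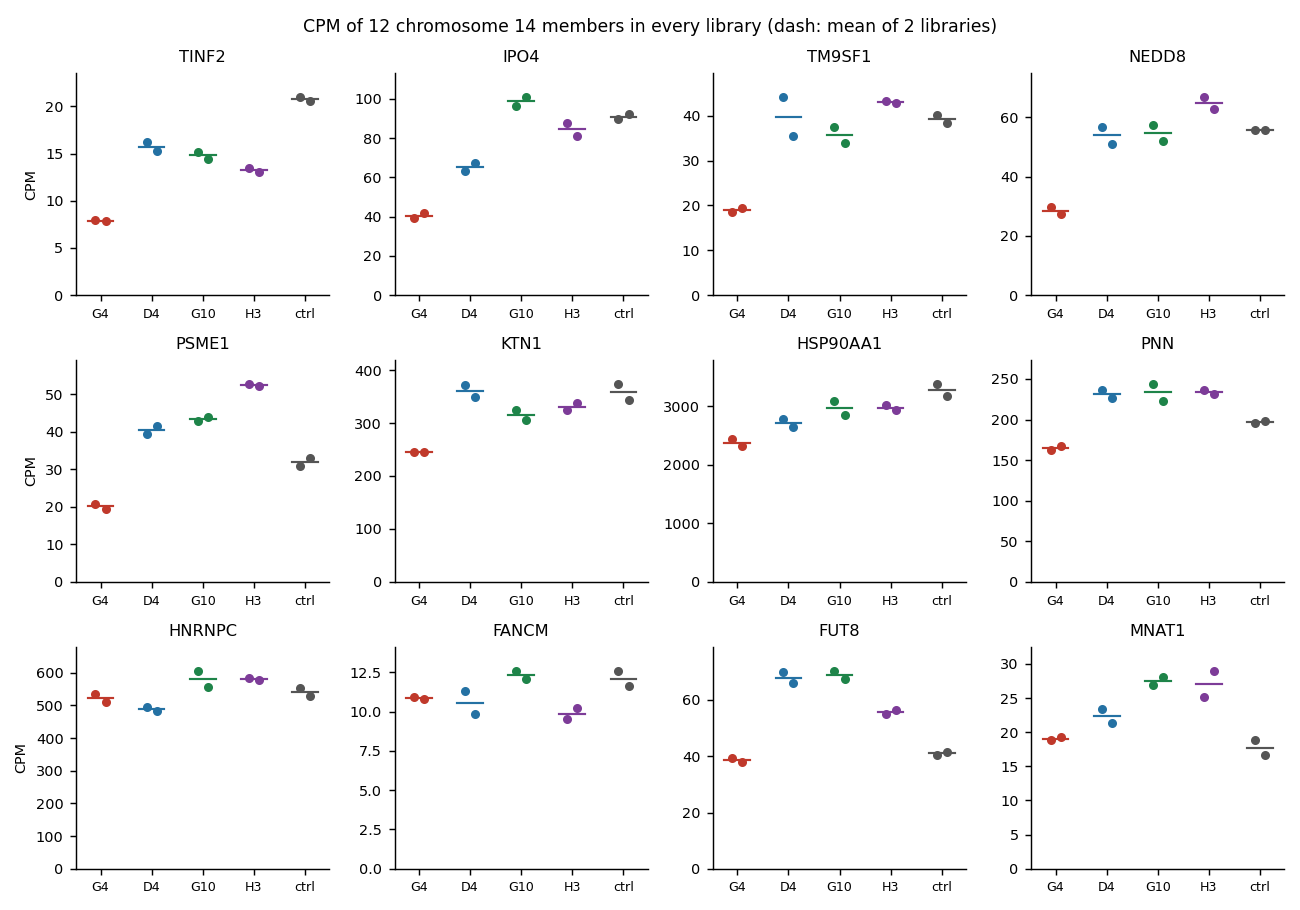
CPM of 12 members in every library, with G4 on the left and the control colony (ctrl) on the right of each panel; points are libraries, dashes are means of 2 libraries and all axes start at 0. The G4 points for TINF2, IPO4, TM9SF1, NEDD8 and PSME1 lie below all other points, while HNRNPC, FANCM, FUT8 and MNAT1 in G4 lie near the control colony.

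The promoters of 4 members of this stretch are printed as examples, and all 4 genes were lower than control in G4. In D4, G10 and H3, PSME1 and PSME2 were both above control. In none of these clones were the differences of IPO4 and NEDD8 both above 0. They are the 250 bases before the RefSeq start (GRCh38.p14), each read 5′ to 3′ on the gene's strand: chr14:24135944-24136193 (plus strand) for PSME1, and chr14:24146611-24146860, chr14:24188817-24189066 and chr14:24232368-24232617 (minus strand) for PSME2, IPO4 and NEDD8. Capitals mark matches to CCGGAAGT (an ETS family motif) or to GAAA followed, after any 2 bases, by GAAA again (an interferon regulatory factor motif), searched on both strands; these motifs do not overlap each other.
PSME1: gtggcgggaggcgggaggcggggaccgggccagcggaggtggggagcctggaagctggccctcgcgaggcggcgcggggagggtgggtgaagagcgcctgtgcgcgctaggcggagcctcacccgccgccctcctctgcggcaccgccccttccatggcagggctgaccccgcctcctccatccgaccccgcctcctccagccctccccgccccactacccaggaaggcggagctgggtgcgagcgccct
PSME2: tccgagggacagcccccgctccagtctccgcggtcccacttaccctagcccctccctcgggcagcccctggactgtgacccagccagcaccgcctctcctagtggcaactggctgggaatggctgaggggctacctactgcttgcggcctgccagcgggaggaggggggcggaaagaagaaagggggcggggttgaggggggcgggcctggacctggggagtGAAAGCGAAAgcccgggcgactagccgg
IPO4: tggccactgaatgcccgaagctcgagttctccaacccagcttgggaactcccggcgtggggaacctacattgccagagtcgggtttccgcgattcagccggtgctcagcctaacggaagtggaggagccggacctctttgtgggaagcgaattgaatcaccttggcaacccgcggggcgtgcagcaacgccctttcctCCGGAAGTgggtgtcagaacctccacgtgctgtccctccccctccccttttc
NEDD8: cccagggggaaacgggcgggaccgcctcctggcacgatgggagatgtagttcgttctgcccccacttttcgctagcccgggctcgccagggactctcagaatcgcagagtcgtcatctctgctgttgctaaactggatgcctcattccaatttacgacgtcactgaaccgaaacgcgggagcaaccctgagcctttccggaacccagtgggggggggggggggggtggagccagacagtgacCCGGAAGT
The PSME1 window held neither set of letters. The ETS letters occurred once each in the IPO4 and NEDD8 windows, and the paired GAAA once in the PSME2 window. Over 51 members with a promoter entry, 8 held CCGGAAGT (SUPT16H, ACIN1, IPO4, NEDD8, TINF2, SRSF5, AHSA1 and MARK3), and 3 held the paired GAAA (PSME2, SRP54 and MLH3). These are genes with a match in any of their entries. Counted the same way over all 27305 genes with an entry, 4.13% held the ETS letters and 3.71% the paired GAAA; over single entries (35116) the shares were 3.42% and 3.02%. The 27305 genes were counted whether expressed or not, while all members passed the filter on low values. The 51 members also had 76 entries between them. The bases are thus unlike, and no excess is read from these counts. A match describes the sequence only.

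The second stretch, STRN3 to PRPF39, had 9 members with a G4 median of -0.52, of which 7 were called lower. They include SRP54, the GTPase of the signal recognition particle, at -0.52, PSMA6, an alpha subunit of the proteasome core, at -0.31, and STRN3, a striatin of the STRIPAK phosphatase complex, at -0.78. PNN encodes pinin, a protein of desmosomes and of splicing complexes. It stood at 162 and 167 CPM in G4, 237 and 226 in D4, 244 and 223 in G10, 237 and 232 in H3, and 196 and 198 in the control colony. G4 was below the control colony at 83.5% of it, and D4, G10 and H3 were above it at 118%, 118% and 119%.

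BAZ1A, the large subunit of the ACF chromatin remodeller, stood at 96.3 and 88.3 CPM in G4, 118 and 113 in D4, 115 and 98.9 in G10, 84.9 and 97.9 in H3, and 136 and 133 in the control colony. All clones were below control and the H3 libraries spanned the G4 ones. FANCM, a DNA translocase of the Fanconi anaemia pathway, stood at 10.9 and 10.8 CPM in G4, 11.3 and 9.84 in D4, 12.6 and 12.1 in G10, 9.54 and 10.2 in H3, and 12.6 and 11.6 in the control colony. Its G4 difference of -0.14 ± 0.12 was about the size of its error; that of PRPF39, a U1 snRNP factor, was -0.18 ± 0.10, and neither was called.

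The third stretch, POLE2 to MNAT1, had 10 members with a G4 median of -0.46, of which 8 were called lower. GMFB, a regulator of actin branching, differed by -0.79 in G4, SOS2, a guanine nucleotide exchange factor for Ras, by -0.56, and TIMM9, a chaperone of the mitochondrial intermembrane space, by -0.64. KTN1 encodes kinectin, a membrane receptor for kinesin. It stood at 246 and 246 CPM in G4, 372 and 350 in D4, 324 and 306 in G10, 325 and 337 in H3, and 374 and 344 in the control colony. G4 lay below every other library at 68.5% of control, close to the median member.

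MNAT1, the assembly factor of the CDK-activating kinase, went against the rest of the list. It stood at 18.8 and 19.3 CPM in G4, 23.4 and 21.3 in D4, 26.9 and 28.1 in G10, 25.2 and 29 in H3, and 18.8 and 16.7 in the control colony. G4 was level with the control colony, at a difference of 0.10 ± 0.11, and below D4, G10 and H3, which stood at 126%, 155% and 152% of control. Relative to the mean of those 3 clones MNAT1 was at -0.40 in G4.

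The fourth stretch, SYNE2 to SPTLC2, had 13 members with a G4 median of -0.38, of which 11 were called lower. MAX, the dimerization partner of MYC, differed by -0.44, NUMB, an inhibitor of Notch signalling, by -0.50, and MLH3, a mismatch repair protein, by -0.61. FUT8, the enzyme of core fucosylation of N-glycans, stood at 39.4 and 38.0 CPM in G4, 69.9 and 66.0 in D4, 70.4 and 67.3 in G10, 54.9 and 56.3 in H3, and 40.4 and 41.6 in the control colony. As for MNAT1, G4 was near control (94.5%) while D4, G10 and H3 were well above it (166%, 168% and 136%). Relative to the mean of the other clones FUT8 differed by -0.71 in G4.

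AHSA1, an activator of the HSP90 ATPase, stood at 340 and 341 CPM in G4, 289 and 288 in D4, 323 and 321 in G10, 399 and 385 in H3, and 389 and 394 in the control colony. G4 was below control at 86.9%, but D4 and G10 were lower still, so the order of the clones differed from that of most members. SPTLC2, a catalytic subunit of serine palmitoyltransferase, stood at 42.5 and 39.7 CPM in G4, 79.2 and 68.2 in D4, 47.8 and 41.5 in G10, 50.7 and 55.3 in H3, and 69.8 and 62.1 in the control colony. The G4 and G10 libraries of SPTLC2 overlapped, at 62.4% and 67.7% of control.

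SYNE2 encodes nesprin-2, which links the nucleus to the cytoskeleton. It stood at 29.1 and 36.4 CPM in G4, 82.0 and 81.7 in D4, 42.5 and 43.6 in G10, 43.6 and 69.1 in H3, and 52.0 and 51.1 in the control colony. The H3 libraries differed from each other by more than H3 and control did on average, and the G4 difference of -0.64 ± 0.20 was the least precise of the named members. Its call in G4 was lost with median-of-ratios scaling, without the filter on low values, with limma-voom and in 8 of the 10 fits that left out 1 library.

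The fifth stretch, GOLGA5 to BRF1, had 10 members, all called lower in G4, with a median of -0.62. HSP90AA1, the inducible cytosolic HSP90, stood at 2433 and 2318 CPM in G4, 2782 and 2647 in D4, 3097 and 2851 in G10, 3020 and 2935 in H3, and 3382 and 3180 in the control colony. All clones lay below control and G4 lay lowest, at 72.4%. DICER1, which cuts microRNA precursors, PAPOLA, a poly(A) polymerase, DYNC1H1, the heavy chain of cytoplasmic dynein, and KLC1, a kinesin light chain, differed by -0.63, -0.55, -0.61 and -0.65 in G4. YY1, a zinc finger transcription factor, differed least in this stretch, by -0.19, and by 0.19, 0.30 and 0.28 in D4, G10 and H3.

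BRF1, a subunit of the RNA polymerase III factor TFIIIB, stood at 28.0 and 33.2 CPM in G4, 33.9 and 39.5 in D4, 38.3 and 56.7 in G10, 58.8 and 52.3 in H3, and 48.9 and 54.4 in the control colony. G4 and D4 were below control and G10 spanned it. The calls of BRF1 and AHSA1 in G4 were lost when any 1 of the G4 or control libraries was left out, and that of PNN without G4 replicate 1. BRF1, PACS2 and BTBD6 overlap, so their reads may not be fully separable.

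The other genes of the chromosome had like values. The 508 other chromosome 14 genes tested had a G4 median of -0.48, with 320 called lower and 3 higher; their medians were -0.09 in D4, -0.07 in G10 and -0.06 in H3. Over all 427 chromosome 14 genes averaging 5 CPM or more, 95.1% were below 0 in G4 and 75.9% were called lower. The chromosome 14 median of -0.51 in G4 was the lowest of 23 chromosomes, and the next lowest was that of chromosome 19 at -0.17. In the other clones chromosome 14 ranked ninth (D4, -0.08), seventh (G10, -0.07) and seventh (H3, -0.08) from the lowest. Other chromosomes had the extreme medians there. Chromosome 16 was the lowest in D4 (-0.40) and H3 (-0.31). In G10 the lowest was chromosome 18 at -0.17, with chromosome 16 at -0.12. Chromosome 21 was the highest in D4, G10 and H3, at 0.32, 0.32 and 0.29. In G4 the medians of chromosomes 2 and 6 were 0.23 and 0.20.

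**Figure D3:**
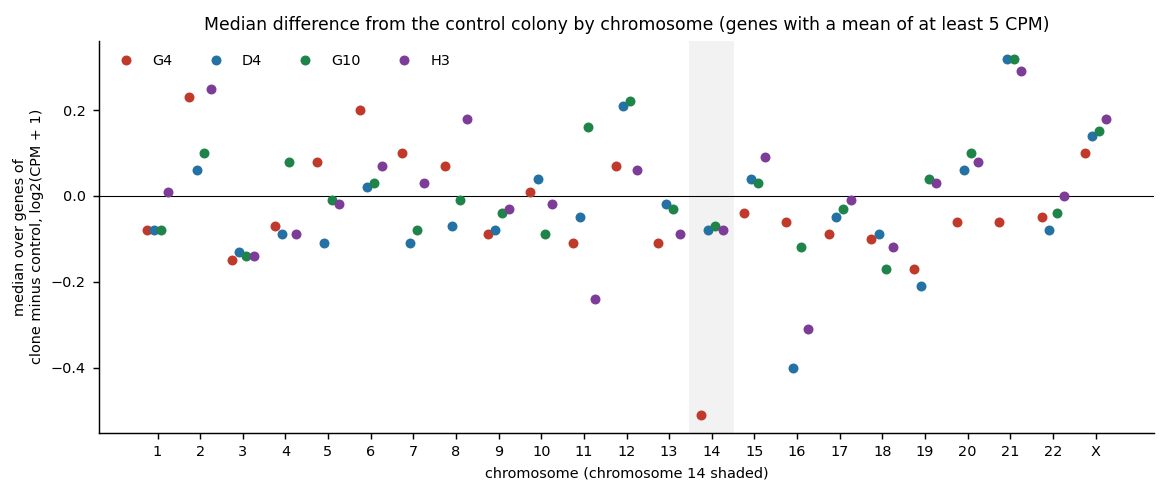
Median difference from the control colony over the genes of each chromosome that averaged 5 CPM or more, on the log2(CPM + 1) scale; points are clones and chromosome 14 is shaded. Chromosome 14 in G4 lies at -0.51, below every other point, while D4, G10 and H3 lie at -0.08, -0.07 and -0.08.

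The low values in G4 ran along the whole chromosome. A running median over 21 neighbouring genes was below 0 in all 407 windows in G4, ranging from -1.15 around NEDD8 to -0.21 around JKAMP. In D4 the running median ranged from -0.37 to 0.16, in G10 from -0.40 to 0.22 and in H3 from -0.35 to 0.21. The genes between the members gave like medians by stretch in G4, at -0.79, -0.61, -0.44, -0.50 and -0.45 from the first to the fifth, beside member medians of -0.64, -0.52, -0.46, -0.38 and -0.62.

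**Figure D4:**
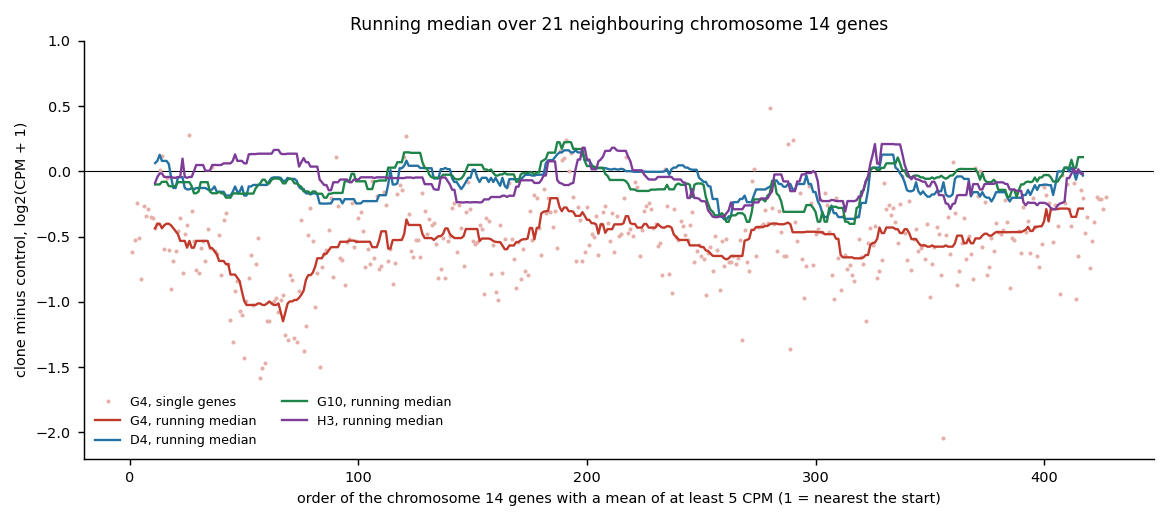
Running median of the difference from the control colony over 21 neighbouring chromosome 14 genes, on the log2(CPM + 1) scale, against gene order; lines are clones and pale points are single genes in G4. The G4 line stays below 0 from end to end and dips to -1.15 around NEDD8, while the other lines stay between -0.40 and 0.22.

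The G4 displacement was of about one size across kinds of chromosome 14 genes. Split into 3 equal parts from lowest to highest mean CPM, a measure that also grows with transcript length, the genes had medians of -0.52, -0.52 and -0.51. Genes with the shortest, middle and longest span in the annotation had medians of -0.47, -0.52 and -0.53. The medians were -0.50 and -0.52 on the plus and minus strands, and -0.52 for 377 protein-coding genes and -0.43 for 50 others. Among genes averaging 5 CPM or more that are no members, the lowest in G4 were OTUB2, a deubiquitinase, at -2.04, RNF31, and AL136295.5, a gene that overlaps RNF31, at -1.51. OTUB2 was at -1.48, -0.68 and -0.83 in D4, G10 and H3.

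Few genes of the chromosome went up in G4, and those named here were the highest of the same set. PGF, the placental growth factor, stood at 40.2 and 47.9 CPM in G4, 9.15 and 9.14 in D4, 10.5 and 11.4 in G10, 12.8 and 14.4 in H3, and 28.9 and 33.5 in the control colony. G4 was above control by 0.48 and the other clones were below it, at -1.66, -1.43 and -1.14. MMP14, a membrane-bound matrix metalloproteinase, was 0.28 higher in G4, with 156 and 169 CPM, against 131 and 136 CPM in the control colony. LINC00648, a long non-coding RNA, was at 0.27 and was not called.

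Partners of the members in 21 complexes and pathways, encoded on other chromosomes, were set beside them. These partners were not part of the choice of members. Of 123 partners tested in G4, 16 were lower and 19 higher, with a median of 0.03, so that 28.5% were called where 27.3% of all genes tested were. The count of called partners fell below 35 when a control or G4 library was left out. The share of all genes called in those fits is not given here, so nothing is read from that fall. Of 26 members with listed partners, 23 lay below every partner of their complex in G4. The exceptions were POLE2, MNAT1 and FANCM. In D4, G10 and H3 the corresponding counts were 4, 5 and 6 of 26. The members were chosen with their clone differences in view, and members of the same complex share partners. These counts are therefore a description, and no such count was made for other genes.

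The proteasome gave the broadest view. PSME2 differed by -0.71 in G4, PSME1 by -0.64, PSMA6 by -0.31 and PSMC6, an ATPase of the regulatory particle, by -0.29. Another 3 listed proteasome genes on chromosome 14 that are not members, PSMB5, PSMC1 and PSMA3, differed by -0.59, -0.26 and -0.18. The 30 proteasome genes on other chromosomes had a median of 0.12, from -0.14 to 0.93; 10 were higher and 0 lower by limma, where 10.9% of all genes tested were called higher. Of the 10, PSMD1 and PSMD14 lie on chromosome 2, PSMB1, PSMB8 and PSMB9 on chromosome 6, and PSMA2 and PSMC2 on chromosome 7. The genes of these chromosomes had G4 medians of 0.23, 0.20 and 0.10, with 39.5%, 38.0% and 23.7% called higher. The rest of the 10, PSMB2, PSMD2 and PSMD3, lie on chromosomes 1, 3 and 17, with G4 medians of -0.08, -0.15 and -0.09. The part of the chromosome medians in the proteasome counts was not tested. Across the other settings the median of the proteasome genes on other chromosomes ran from 0.11 to 0.17. The number called higher moved with the setting, and the share of all genes so called is not given there. The highest was PSMB9, an immunoproteasome subunit, with 4.20 and 5.45 CPM in G4, against 2.00 and 2.10 CPM in the control colony (0.93 ± 0.16, limma adjusted p = 0.000666). It was also high in D4, G10 and H3, at 0.77, 0.83 and 1.11. In D4, G10 and H3 the 7 proteasome genes on chromosome 14 and the 30 elsewhere had like medians, at -0.06 and -0.05, 0.05 and 0.05, and 0.09 and 0.09. Of the 30 elsewhere, 6 were called higher and 8 lower in D4, 11 and 5 in G10, and 13 and 6 in H3. The shares of all genes tested were 17.5% and 23.8% in D4, 17.8% and 19.1% in G10, and 23.9% and 22.1% in H3.

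**Figure D5:**
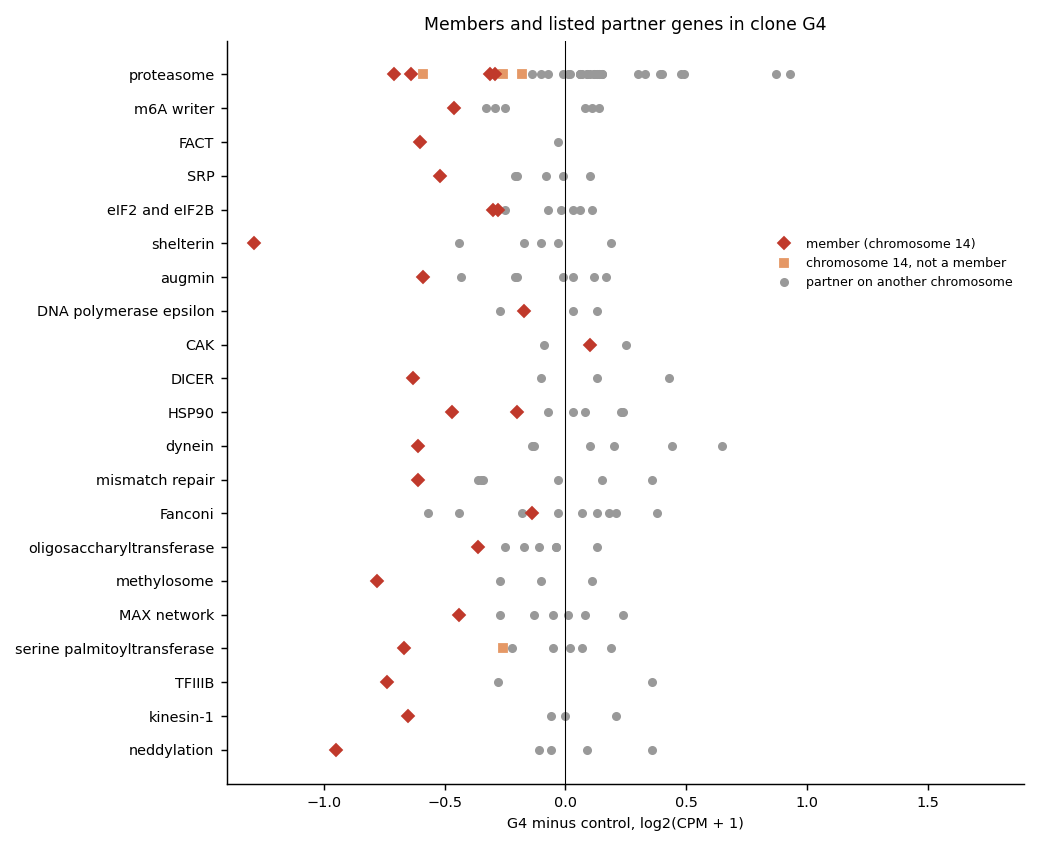
Difference of G4 from the control colony on the log2(CPM + 1) scale for members (diamonds), other chromosome 14 genes (squares) and partners on other chromosomes (circles) in 21 complexes or pathways. The diamonds lie left of every circle in their row except for POLE2, MNAT1 and FANCM.

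In shelterin, TINF2 stood at -1.29 in G4 and its 5 partners had a median of -0.10. Among them TERF2, which binds telomeric DNA, differed in G4 by -0.44 ± 0.10 (limma adjusted p = 0.00399, lost without G4 replicate 2 at 0.0661), with 44.5 and 39.0 CPM in G4, against 56.0 and 57.7 CPM in the control colony. TERF2 was at -0.91, -0.65 and -0.83 in D4, G10 and H3. In dynein, the heavy chain DYNC1H1 was at -0.61 and DYNLT1, a light chain, was higher by 0.65 ± 0.10 (limma adjusted p = 0.000301), with 45.3 and 40.9 CPM in G4, against 29.4 and 24.9 CPM in the control colony. The DYNLT1 difference kept its call in all 17 settings.

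Further partners called in G4 were FAAP24, a partner of FANCM, at -0.57, HAUS5, a subunit of augmin, at -0.43, TARBP2, a partner of DICER1, at 0.43, and UBE2F, a NEDD8-conjugating enzyme, at 0.36. TBP, the TATA-binding protein, and PMS1, a mismatch repair protein, were at 0.36 each, and ZC3H13, of the RNA adenosine methyltransferase complex, was at -0.33. Each of these 7 lost its call in at least 1 of the settings that left out a library. FAAP24 (limma adjusted p of 0.00311 to 0.0745 over all settings) and ZC3H13 (0.00154 to 0.0654) lost it without control replicate 1 or G4 replicate 2. HAUS5 (0.00157 to 0.0935) lost it without control replicate 2 or G4 replicate 1, and TARBP2 (0.00361 to 0.0626) and UBE2F (0.00261 to 0.0785) without G4 replicate 1. TBP (0.0155 to 0.22) and PMS1 (0.0153 to 0.394) lost it without control replicate 2 or either G4 library, and PMS1 also without either H3 library. Both also lost it without the filter on low values (TBP 0.0561, PMS1 0.0603).

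Between D4, G10 and H3 members were called in both directions. In D4 minus G10, 9 members were called lower and 7 higher (16.9% and 12.6% of all genes tested). In D4 minus H3, 11 were lower and 7 higher (23.3% and 15.0%), and in G10 minus H3, 7 were lower and 13 higher (21.4% and 18.1%). The shares of members were 15.8% and 12.3%, 19.3% and 12.3%, and 12.3% and 22.8%, and nothing is read from these shares. The medians over members were -0.10, -0.04 and 0.01, beside -0.05, -0.07 and -0.01 over all genes tested. Members below 0 made up 71.9%, 63.2% and 47.4%, beside 56.9%, 56.9% and 50.9% of all genes tested. Whether the members moved together was not tested. The list was made with each clone's difference from control known, so the values below are examples and not independent evidence.

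ACTN1, an actin cross-linking alpha-actinin, varied most between these clones. It stood at 272 and 272 CPM in G4, 486 and 482 in D4, 396 and 399 in G10, 227 and 235 in H3, and 320 and 334 in the control colony. No 2 groups overlapped. It was higher in D4 than in H3 by 1.07 ± 0.05 (limma adjusted p = 1.1e-09), higher in G10 than in H3 by 0.78 ± 0.05 (limma adjusted p = 2.19e-08), and higher in D4 than in G10 by 0.28 ± 0.05 (limma adjusted p = 0.001). SPTLC2 was higher in D4 than in G10 by 0.71 ± 0.10 (limma adjusted p = 5.9e-05), and IPO4 differed by -0.59 ± 0.08 in D4 minus G10 (limma adjusted p = 2.7e-05). AHSA1 differed by -0.44 ± 0.05 in D4 minus H3 (limma adjusted p = 9.67e-06). SYNE2 was higher in D4 than in G10 by 0.91 ± 0.20 (limma adjusted p = 0.0121), up to 0.0703 under the other settings.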

How the data were processed

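The authors deposited CPM values per gene for 10 libraries, as the file headers name them. STAR 2.5.3a, HTSeq and hg38 are listed per the submitters' processing notes; the annotation release, filters and strand setting are not given in the sources used here. Total RNA was made into libraries with Ovation Solo reagents, per the labels' protocols. Each deposited CPM column is made of whole multiples of a step near 0.05, so reads were estimated by undoing that scaling (99.76% to 99.89% of values exact, 9653836 to 14253424 reads per library; 3 reads equal 0.21 to 0.311 CPM, counting error only). Positions came from GENCODE 29 by identifier (58039 of 58302 genes), and promoters from RefSeq.

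The 17664 genes that reached 1 CPM in 2 or more libraries were fitted with limma 3.58.1 (trend, robust; R 4.3.3) on log2(CPM + 1), with a coefficient for each group, 5 residual degrees of freedom and Benjamini-Hochberg adjustment over all genes; fold changes of low genes are understated by the pseudocount. The fit was tested on simulated data. Members, complexes, stretches and markers were chosen with earlier results of these data known. Members given with every library were picked by a rule (per stretch the highest mean CPM, the 4 largest and 4 smallest G4 differences, the 2 largest and 2 smallest in each other clone, the 3 widest ranges); ACTN1 and PSME2 were added after their values were seen. The labels number the replicates, but deviations of replicates with the same number correlated between -0.24 and 0.41, so the numbers were not taken as pairs. Alternatives were median-of-ratios scaling, a pseudocount of 0.1, other filters on low values, a replicate block, leaving out each library and, chosen after seeing the data, limma-voom on the estimated reads.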

Additional observations from a re-analysis of the deposited data

Results flagged for a closer look

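For 8 of the 18 members given with every library by the naming rule, every library of 2 clones lay on opposite sides of both control libraries and limma called the difference between these clones. The members were chosen with these contrasts in view, so the differences, on the log2(CPM + 1) scale with their standard errors, are a description. In the first stretch, IPO4 differed by -1.26 ± 0.08 in G4 minus G10, TM9SF1 by -1.14 ± 0.10 in G4 minus H3, NEDD8 by -1.16 ± 0.09 in G4 minus H3 and PSME1 by -1.34 ± 0.08 in G4 minus H3. HNRNPC, which differed little between G4 and control, was at -0.25 ± 0.06 in D4 minus G10. PNN was at -0.51 ± 0.06 in G4 minus H3, FUT8 at -0.81 ± 0.08 in G4 minus G10 and SYNE2 at -1.3 ± 0.20 in G4 minus D4. Over all 57 members 26 met the same condition, among them ACTN1 at 1.07 ± 0.05 in D4 minus H3 and PSME2 at -1.15 ± 0.08 in G4 minus H3. The share of all genes tested that met it was not counted, so nothing is read from the 8 or the 26. The groups of 2 libraries are too small for a check of single outlying libraries.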

How the results depend on the processing

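No called result changed direction under any alternative. Among values that were not called, 8 changed sign at least once: the member median in G10 (-0.04, and 0.03 without G10 replicate 2), NEDD8, KTN1 and TM9SF1 in D4, FANCM, BRF1 and NEDD8 in G10, and SYNE2 in H3 (0.09, and -0.24 without H3 replicate 2). NEDD8 in D4 did so with median-of-ratios scaling (-0.05 to 0.01), the others only when a library was left out. With the replicate block the G4 median over members was -0.54. This pairing by replicate number, which the labels do not explain, changed none of the 15 summary results by more than 1.5 times. Under the block 4 differences of named members passed the threshold that had not before: HNRNPC, BRF1 and BAZ1A in D4 and NEDD8 in H3. Deviations with the same number correlated at 0.21 to 0.41 among control, D4, G4 and G10, and at -0.24 to -0.08 in the pairs with H3. The median of the other chromosome 14 genes in G4 was -0.48, and moved to -0.44 with median-of-ratios scaling, -0.55 with a pseudocount of 0.1, -0.51 with a mean of at least 5 CPM and -0.55 with limma-voom; in D4 it moved to -0.04 with median-of-ratios scaling.

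Leaving out 1 library at a time gave ranges of -0.15 to -0.03 for the median over members in D4 (16 to 31 called), -0.58 to -0.48 in G4 (40 to 50), -0.09 to 0.03 in G10 (15 to 24) and -0.12 to -0.02 in H3 (15 to 24). In G4 minus the mean of D4, G10 and H3 the median ran from -0.49 to -0.42 (44 to 52 called). The other chromosome 14 genes ran from -0.12 to -0.06 in D4, -0.50 to -0.47 in G4, -0.10 to -0.05 in G10 and -0.07 to -0.04 in H3, and the called partners from 14 to 38. A lone library left in a group is assumed to vary like the other groups.

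Each clone is 1 line and the control is 1 colony, so clone and editing cannot be told apart.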
